A study of Homo sapiens with 8 samples.

Results

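The SLC25 family encodes the carriers of the inner mitochondrial membrane. Its members were taken here as every gene whose symbol is SLC25A followed by a number. They were chosen by symbol, and where a gene had more than 1 probe set the one with the highest mean signal over all 8 arrays stood for it. This gave 45 of the 22395 genes with a value, and 42 of them lay above the expression filter that 16796 genes passed. The filter was the 25th percentile of mean signal, 2.51 on the log2 scale. SLC25A31 (mean signal 1.68), SLC25A41 (2.07) and SLC25A52 (2.17) lay below it, and the nearest member above it was SLC25A48 at 3.0. SLC25A6 was not analysed here, and the probe set of SLC25A15 is also annotated to the microRNA gene MIR621, so it was kept apart.

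RNA came from the human prostate cancer lines C4-2B, DU145, PC3 and VCaP, harvested 48 hours after transfection. In each line 1 culture received non-targeting siRNA (the control) and 1 received siRNA against DNAPK, so that 8 arrays form 4 pairs. C4-2B derives from LNCaP, DU145 from a brain metastasis, PC3 from a bone metastasis, and VCaP from a vertebral metastasis with a TMPRSS2-ERG fusion. All 4 are established cancer lines, each with 1 array per siRNA, so the spread used below for differences is the spread between lines. For levels it is the spread left between the 2 arrays of a line after a common siRNA effect. Values are log2 signals, and a difference is DNAPK siRNA minus control, so 1 on this scale is 2-fold. In RNA from whole cultures, less RNA per cell and fewer cells that carry it cannot be told apart.

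The inner membrane of mitochondria is closed to most solutes, and SLC25 proteins move them across it, usually by exchanging one for another. Their substrates include ADP and ATP, phosphate, citrate and other carboxylates, amino acids, acylcarnitines, cofactors, nucleotides and iron. Prostate epithelium is known for making and secreting citrate, and prostate cancers for using it in the citric acid cycle and in lipid synthesis, which makes the carriers of citrate and of the malate-aspartate shuttle of interest in this tissue.

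The targeted gene, PRKDC, which encodes the catalytic subunit of DNA-PK, had control signals of 9.29 (C4-2B), 9.17 (DU145), 9.17 (PC3) and 9.80 (VCaP), and 6.76, 8.08, 7.17 and 9.18 with its siRNA. It was lower in every line, and 17.4%, 47.2%, 25.1% and 65.0% of the control signal was left, the most in VCaP. Its mean difference of -1.56 ± 0.86 (SD, n = 4 lines) did not pass the test over all genes (limma, adjusted p = 0.688). Among line markers, control signals of KLK2 were high in C4-2B (10.70) and VCaP (11.37) and low in DU145 (3.94) and PC3 (4.42), whereas KLK3 was high in C4-2B alone (10.12, with 4.46 for VCaP). TMPRSS2, from the same marker list as KLK2 and KLK3, had control signals of 9.56 (C4-2B), 2.18 (DU145), 6.72 (PC3) and 9.03 (VCaP). ERG marked VCaP (8.57), with no other control above 3.52. PTPRC and CD3E, markers of immune cells, had mean signals of 1.53 and 2.38, below the filter. CD68, also listed as an immune marker, lay above it, with a mean signal of 6.17. Its control signals were 4.99 (C4-2B), 7.73 (DU145), 7.40 (PC3) and 4.61 (VCaP).

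No carrier gene passed the test of DNAPK siRNA against control over the 4 lines. The limma fit called 0 of 42 carriers, and 0% of all genes (0 of 16796), with adjusted p of 0.688 to 0.993 for the carriers. An adjusted p of 0.688 was the smallest over all genes. Genes with unlike unadjusted p share it, such as SLC25A10 (limma, unadjusted p = 0.0012) and SLC25A44 (0.051), so it does not rank them. At an unadjusted p under 0.05 the fit counted 7 carriers, or 16.7%, against 7.19% of all genes. Of the 42, 7 stood higher in each of the 4 lines, against 11.5% of all genes, and 5 stood lower in each, against 5.89%. The 7 were SLC25A1, SLC25A5, SLC25A10, SLC25A13, SLC25A17, SLC25A22 and SLC25A44, and the 5 were SLC25A12, SLC25A16, SLC25A30, SLC25A37 and SLC25A47. With each array centred on its median, the split was 7 higher and 6 lower, with 8 of these 12 among them, where all genes had 7.91% higher and 8.34% lower. With cyclic loess it was 6 higher and 9 lower, with 10 of the 12 among them, and all genes had 7.84% and 8.45%. Under both rescalings, but not as deposited, SLC25A25 was higher and SLC25A18, SLC25A29 and SLC25A36 were lower in every line. No carrier had a difference past 1 in any line, where 6.02% of all genes did so in at least 1 line. The largest single value was -0.99, that of SLC25A2 in VCaP, a gene with a mean signal of 3.28, near the filter.

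As a list the carriers stayed close to the bulk of genes. The median of their mean differences was 0.06, or 0.015 without C4-2B, against 0.03 for all genes, with 25 of 42 above 0 (all genes, 56.4%). Within lines the medians were 0.09 (DU145), -0.012 (C4-2B), -0.013 (PC3) and -0.036 (VCaP), so the median of the means and most line medians differ in sign. DU145 had 31 of 42 carriers above 0, against 56.9% of all genes, but 26 with median centring (all genes, 51.6%) and 24 with cyclic loess (48.1%). C4-2B, PC3 and VCaP had 21, 21 and 19, against 57.1%, 55.5% and 49.7% of all genes. With median centring they had 19, 19 and 23, against 47.1%, 44.6% and 53.7%, and the VCaP median turned to 0.0033. The size of the movement was ordinary too, with a median absolute difference of 0.206 per line for carriers and 0.20 for all genes.

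**Figure D1:**
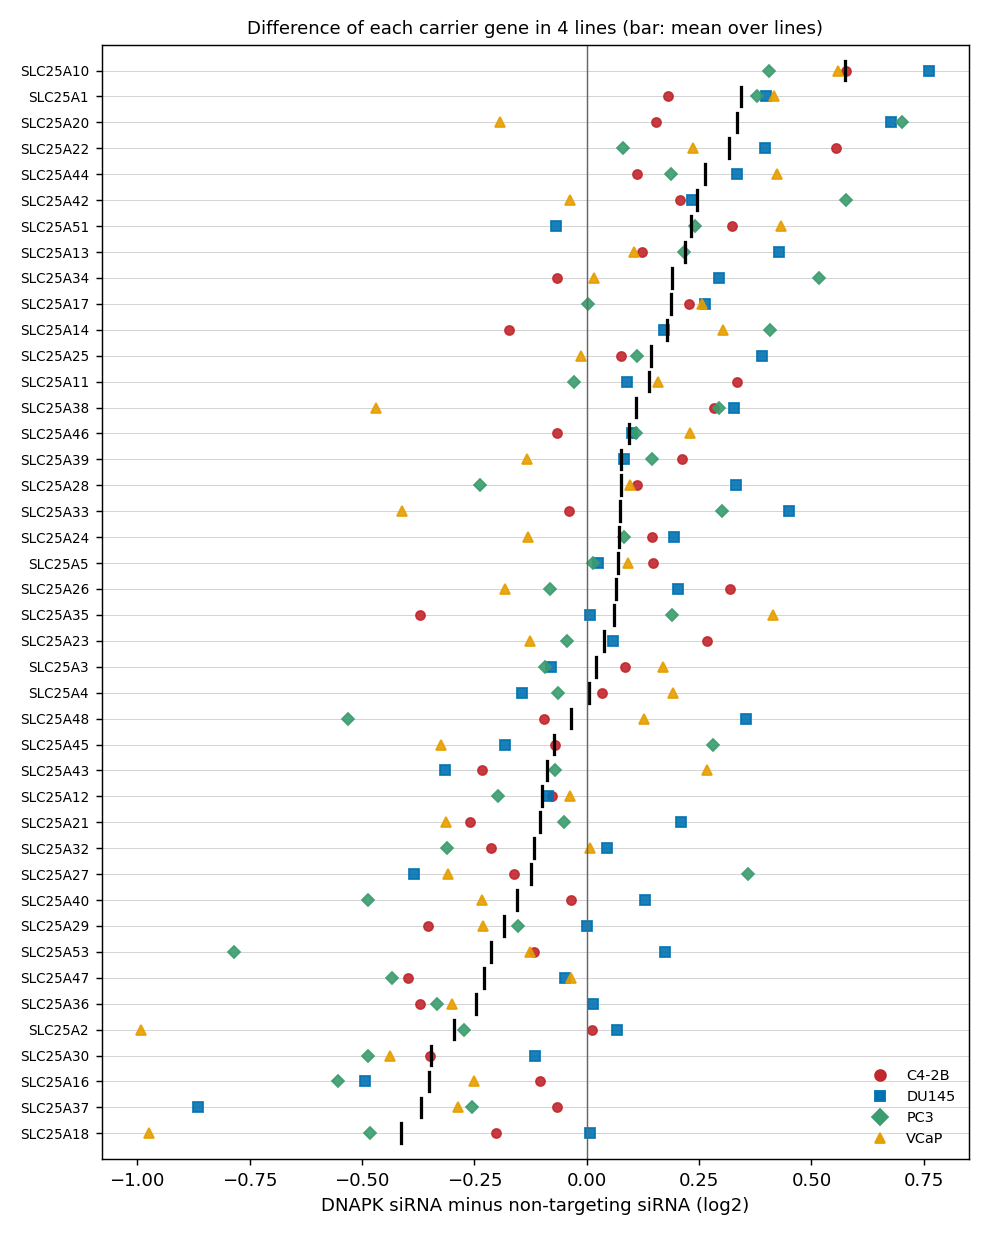
Each row is 1 of the 42 carriers above the filter, and each symbol its difference between DNAPK siRNA and control (log2) in 1 line, with a black bar at the mean. SLC25A10 (mean 0.58) and SLC25A18 (mean -0.41) are the ends of the order, 7 carriers have every symbol right of 0, 5 have every symbol left of it, and no symbol lies past 1.

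Of the 4 carriers of citrate and related carboxylates, 2 were higher in every line (all genes, 11.5%). The median for the 4 was 0.24 (all genes, 0.03), in a group too small to describe by its share. SLC25A10, the dicarboxylate carrier, which exchanges malate or succinate for phosphate, had signals of 8.29, 5.52, 6.29 and 7.18 in the C4-2B, DU145, PC3 and VCaP controls, and 8.87, 6.29, 6.69 and 7.73 with DNAPK siRNA. Every DNAPK siRNA array stood above the control of its line, while the arrays of the groups overlapped across lines. The differences were 0.58, 0.76, 0.41 and 0.56, with a mean of 0.58 ± 0.15 (SD, n = 4 lines), or 1.49-fold, and a limma 95% interval from 0.31 to 0.84 before adjustment over genes. It did not pass that adjustment (limma, adjusted p = 0.688), and it was known from earlier results of these data as one of the genes higher in every line. A second probe set is annotated to SLC25A10 together with MRPL12, a mitochondrial ribosomal protein gene. That probe set had differences of 0.19, 0.24, -0.037 and -0.028 in C4-2B, DU145, PC3 and VCaP, a mean of 0.092 ± 0.15, and so did not share the higher values of PC3 and VCaP.

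SLC25A1, the citrate carrier that exports citrate for lipid synthesis, had signals of 7.37, 7.03, 6.33 and 6.20 in the C4-2B, DU145, PC3 and VCaP controls, and 7.55, 7.43, 6.71 and 6.62 with DNAPK siRNA. It was also higher in each line, by 0.18, 0.40, 0.38 and 0.42, with a mean of 0.34 ± 0.11 and an adjusted p of 0.688 (limma). Its value in C4-2B was the lowest of the 4 and stood apart from the other lines, which lay between 0.38 and 0.42. SLC25A11, the oxoglutarate-malate carrier of the malate-aspartate shuttle, had a mean difference of 0.14 ± 0.15, and SLC25A21, the oxodicarboxylate carrier, -0.10 ± 0.24. Neither had 1 sign in every line, since SLC25A11 was lower in PC3 (-0.03) and SLC25A21 higher in DU145 only (0.21).

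The promoter of SLC25A1, a carrier higher in every line, is shown for its sequence beside these values. It is the 250 bases before the gene start, from RefSeq (GRCh38.p14), at chr22:19178737-19178986 (minus strand), written 5′ to 3′ on the strand of the gene. Capitals mark matches, on either strand, to any of 7 short motifs: the E-box CACGTG, an NRF1 core CGCATGCG, the ETS motif CCGGAAG, the box CCAAT, an ERR half-site AAGGTCA, the GC box GGGCGG and an ATF4 element TGATGNAA. The motifs were chosen after the data were seen, and none of them contains another.
SLC25A1: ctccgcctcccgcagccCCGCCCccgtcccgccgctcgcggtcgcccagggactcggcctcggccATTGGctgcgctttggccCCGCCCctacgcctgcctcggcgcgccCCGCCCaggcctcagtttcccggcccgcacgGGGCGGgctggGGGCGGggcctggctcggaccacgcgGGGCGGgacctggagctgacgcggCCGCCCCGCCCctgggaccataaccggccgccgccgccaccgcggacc
The SLC25A1 window holds 8 GC boxes, a pair of which overlap, and 1 CCAAT box, and is 81.6% G and C. A GC box occurs in 42.6% of all 35116 windows in the table and a CCAAT box in 32%; the 48 windows of carriers hold them in 31 (64.6%) and 20 (41.7%). The other shares are 1.73% for the NRF1 core, 3.44% for the ERR half-site and 3.14% for the ATF4 element, which 0, 1 and 1 of those 48 windows hold. A match is a string of letters, not a bound site.

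**Figure D2:**
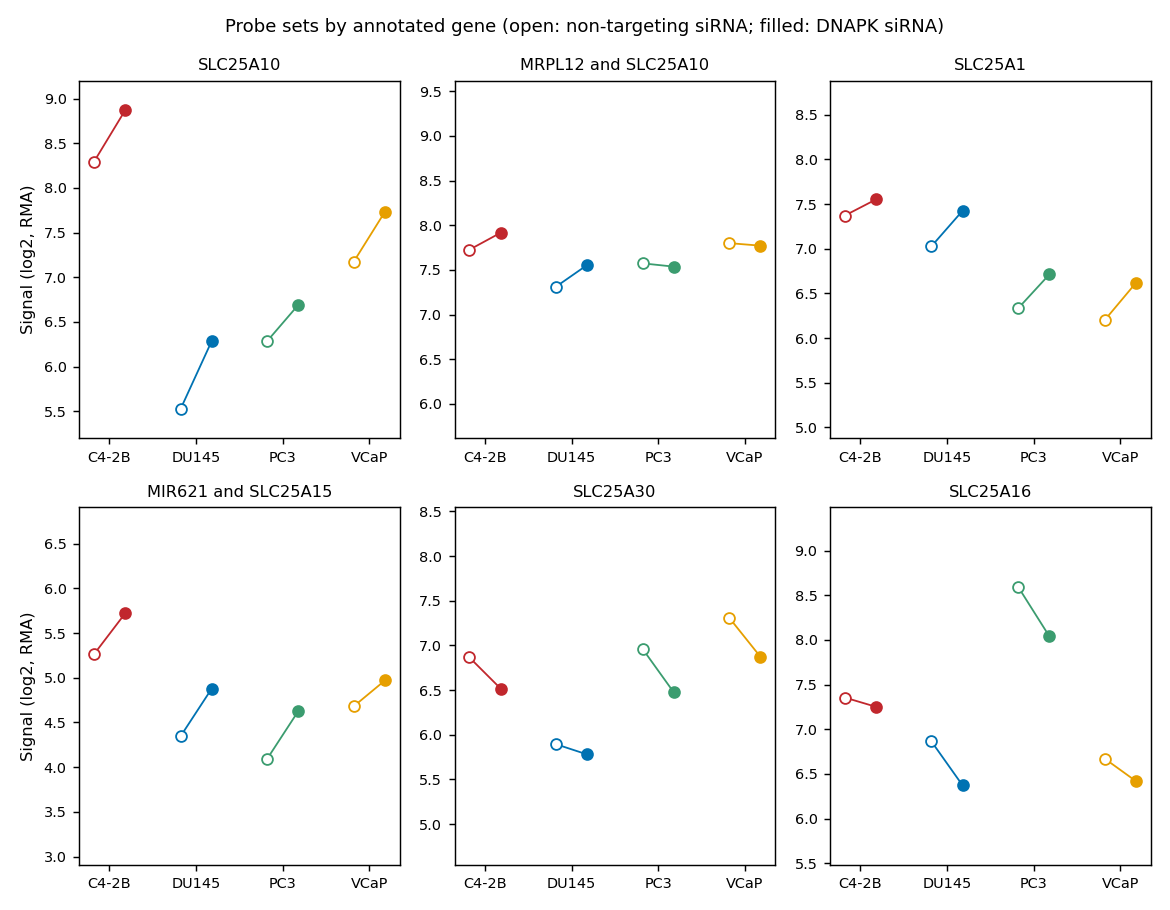
Signals (log2) of 6 probe sets in the 4 lines, control (open) joined to DNAPK siRNA (filled), each panel spanning 4 log2 units. The filled symbol lies above the open one in every line for SLC25A10, SLC25A1 and the probe set of MIR621 and SLC25A15, and below it in every line for SLC25A30 and SLC25A16, while the pairs of the probe set shared by MRPL12 and SLC25A10 differ by at most 0.24.

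Among the 8 amino acid carriers tested, 4 had a mean difference above 0 (all genes, 56.4%) and 4 below. Citrin, encoded by SLC25A13, and aralar, encoded by SLC25A12, exchange aspartate for glutamate in the malate-aspartate shuttle, and they leaned opposite ways. SLC25A13 had signals of 8.46, 7.47, 7.78 and 8.24 in the C4-2B, DU145, PC3 and VCaP controls, and 8.59, 7.90, 7.998 and 8.35 with DNAPK siRNA, a mean difference of 0.22 ± 0.15 (limma, adjusted p = 0.693). SLC25A12 had differences of -0.077, -0.086, -0.20 and -0.037 and a mean of -0.10 ± 0.068, small values that lost their common sign with median centring. SLC25A22, a glutamate carrier, had signals of 5.33, 4.32, 5.06 and 4.46 in the C4-2B, DU145, PC3 and VCaP controls, and 5.88, 4.72, 5.14 and 4.70 with DNAPK siRNA. Its mean difference was 0.32 ± 0.20 (limma, adjusted p = 0.688), with most of it in C4-2B (0.55) and DU145 (0.40) and little in PC3 (0.08). The other glutamate carrier gene, SLC25A18, had -0.41 ± 0.42, of which VCaP gave -0.97, and its signals of 2.60 to 3.67 lay near the filter.

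SLC25A44, a carrier of branched-chain amino acids, had signals of 7.04, 6.85, 7.19 and 6.01 in the C4-2B, DU145, PC3 and VCaP controls, and 7.15, 7.19, 7.38 and 6.43 with DNAPK siRNA. It was higher by 0.11, 0.33, 0.19 and 0.42, a mean of 0.26 ± 0.14 (limma, adjusted p = 0.688). SLC25A38, which supplies glycine for haem synthesis, stood higher by 0.28, 0.33 and 0.29 in C4-2B, DU145 and PC3 but lower by 0.47 in VCaP (signals of 8.26 and 7.79), so VCaP stood apart from the other lines. SLC25A29, a carrier of basic amino acids, had -0.18 ± 0.15. SLC25A2, an ornithine carrier, had -0.30 ± 0.49, nearly all of it from VCaP (-0.99, against 0.01, 0.07 and -0.27). Signals of SLC25A2 ran from 2.80 to 4.07, near the filter. The probe set of SLC25A15, the main ornithine carrier of the urea cycle, which MIR621 shares, had signals of 5.26, 4.34, 4.09 and 4.68 in the C4-2B, DU145, PC3 and VCaP controls, and 5.72, 4.88, 4.63 and 4.97 with DNAPK siRNA. It was higher in each line, by 0.46, 0.53, 0.54 and 0.29, with a mean of 0.45 ± 0.12, but it was outside the fit, and which of its genes gives the signal was not tested.

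Cofactor and nucleotide carriers numbered 8 above the filter, 5 of them with a mean difference above 0 (all genes, 56.4%). SLC25A16, linked to coenzyme A transport and 1 of the 5 carriers lower in every line, had signals of 7.36, 6.86, 8.59 and 6.67 in the C4-2B, DU145, PC3 and VCaP controls, and 7.25, 6.37, 8.04 and 6.42 with DNAPK siRNA. The DNAPK siRNA array lay below its control in every line, with differences of -0.10, -0.49, -0.55 and -0.25 and a mean of -0.35 ± 0.21 (limma, adjusted p = 0.688). SLC25A33 and SLC25A36 carry pyrimidine nucleotides. SLC25A36 was lower by 0.37, 0.33 and 0.30 in C4-2B, PC3 and VCaP and at 0.02 in DU145, a mean of -0.25 ± 0.18. After either rescaling SLC25A36 was lower in DU145 too. SLC25A33 had -0.040, 0.45, 0.30 and -0.41 in C4-2B, DU145, PC3 and VCaP, a mean of 0.075 ± 0.38 that hides opposite signs. SLC25A42, a coenzyme A carrier, had 0.25 ± 0.25, SLC25A51, which carries NAD, 0.23 ± 0.21, and SLC25A17 of peroxisomes 0.19 ± 0.12, with a value of 0.00248 in PC3 and no common sign after either rescaling. The folate carrier SLC25A32 had -0.12 ± 0.17 and the S-adenosylmethionine carrier SLC25A26 0.065 ± 0.24. SLC25A52, a near-identical relative of SLC25A51, lay below the filter, with signals from 1.995 to 2.32, and probes of such copies may not tell them apart.

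The 6 carriers of adenine nucleotides, ATP-Mg and phosphate above the filter had mean differences from 0.0046 to 0.14, with single values up to 0.39 (SLC25A25 in DU145). SLC25A5, the ADP/ATP carrier of dividing cells, had control signals of 8.41, 7.87, 8.61 and 8.02 and DNAPK siRNA signals of 8.56, 7.89, 8.62 and 8.12, in the same order of lines. Its mean difference was 0.070 ± 0.062, above 0 in each line as deposited but not after either rescaling. The gene has pseudogene copies, and whether the probe set reads them was not tested. SLC25A4, the ADP/ATP carrier of heart and muscle, had 0.0046 ± 0.14, and SLC25A3, the phosphate carrier, 0.021 ± 0.13. SLC25A31, known from testis, lay below the filter with signals of 1.45 to 1.92. Among ATP-Mg/phosphate carriers, SLC25A23 had 0.039 ± 0.17, SLC25A24 0.073 ± 0.14 and SLC25A25 0.14 ± 0.17, while SLC25A41 lay below the filter.

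Of the carriers of iron, SLC25A37 (mitoferrin-1) was lower in every line, with signals of 7.88, 9.07, 6.99 and 7.05 in the C4-2B, DU145, PC3 and VCaP controls, and 7.81, 8.21, 6.74 and 6.77 with DNAPK siRNA. The mean of -0.37 ± 0.34 (limma, adjusted p = 0.688) rested on DU145 (-0.86), and without that line it was -0.20. SLC25A28 (mitoferrin-2) had 0.076 ± 0.24. The glutathione carrier SLC25A39 had control signals of 9.72, 9.71, 10.55 and 9.82 and DNAPK siRNA signals of 9.93, 9.79, 10.70 and 9.69, in the same order of lines, a mean difference of 0.076 ± 0.15, and its relative SLC25A40 had -0.16 ± 0.26. Of the carriers related to uncoupling proteins, SLC25A30 had signals of 6.87, 5.89, 6.96 and 7.31 in the C4-2B, DU145, PC3 and VCaP controls, and 6.52, 5.78, 6.47 and 6.87 with DNAPK siRNA. It was lower by 0.35, 0.11, 0.49 and 0.44, a mean of -0.35 ± 0.16 (limma, adjusted p = 0.688). SLC25A14 had 0.18 ± 0.25 and SLC25A27 -0.12 ± 0.34, neither with 1 sign.

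The acylcarnitine carrier SLC25A20, which brings fatty acids to beta-oxidation, had signals of 5.22, 4.26, 5.48 and 4.34 in the C4-2B, DU145, PC3 and VCaP controls, and 5.37, 4.93, 6.19 and 4.15 with DNAPK siRNA. It stood higher by 0.68 in DU145 and 0.70 in PC3, with 0.15 in C4-2B and -0.19 in VCaP. SLC25A46, which acts on the outer membrane in mitochondrial fusion and fission, had 0.093 ± 0.12. Of the 7 carriers without a settled substrate, SLC25A47 was lower in each line, though not with median centring, with control signals of 3.50, 3.22, 3.26 and 3.18 and DNAPK siRNA signals of 3.11, 3.17, 2.82 and 3.15, in the same order of lines, signals that lie near the filter, and a mean of -0.23 ± 0.22 (limma, adjusted p = 0.701). Mean differences of the other 6 ran from -0.21 (SLC25A53) to 0.19 (SLC25A34), with SLC25A43 at -0.088, SLC25A45 at -0.074, SLC25A48 at -0.036 and SLC25A35 at 0.060. A second probe set of SLC25A34, with a lower mean signal of 3.24, had -0.0035.

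Most carriers differed in level between the lines. Each line gave 2 arrays, 1 per siRNA. A moderated F test over the 4 lines, with the siRNA as a term, called 31 of 42 carriers (73.8%) against 62.6% of all genes. The tested carriers had a median signal of 6.33, against 4.92 for all tested genes, and the shares of all genes were not matched for signal. The range of line means among carriers had a median of 1.01 and a highest value of 3.34, against a median of 0.91 for all genes. C4-2B had the highest line mean for 15 of the 42 carriers (26.0% of all genes), PC3 for 11 (23.0% of all genes), DU145 for 8 (23.6%) and VCaP for 8 (27.4%). The 11 carriers that did not pass included SLC25A3, SLC25A12, SLC25A17, SLC25A46 and SLC25A53. Adjusted p for single pairs of lines below are from the same limma model, adjusted over all genes for each pair.

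The pyrimidine carrier SLC25A33 had the widest range. Its signals were 9.58, 5.999, 6.83 and 9.16 in the C4-2B, DU145, PC3 and VCaP controls, and 9.54, 6.45, 7.13 and 8.75 with DNAPK siRNA. The 4 arrays of C4-2B and VCaP all stood above the 4 of DU145 and PC3, with line means of 9.56, 6.22, 6.98 and 8.96 and a range of 3.34, or 10.1-fold (limma F, adjusted p = 3.97e-05). C4-2B and VCaP, neighbours at the top of this order, did not pass as different (adjusted p = 0.0756), while PC3 and DU145 did (adjusted p = 0.0395). SLC25A10 had the same order, C4-2B, VCaP, PC3 and DU145, with line means of 8.58, 7.46, 6.49 and 5.91 (adjusted p = 3.37e-05). Its range of 2.67 was 1.55 without C4-2B. The probe set shared with MRPL12 varied less, with signals from 7.31 (DU145 control) to 7.92 (C4-2B with DNAPK siRNA) over the 8 arrays. The ADP/ATP carrier SLC25A4 had signals of 7.80, 5.67, 6.78 and 7.14 in the C4-2B, DU145, PC3 and VCaP controls, and 7.83, 5.52, 6.71 and 7.34 with DNAPK siRNA. It followed that order too, with a range of 2.22 (adjusted p = 9.72e-05), or 1.07 without DU145, and each pair of neighbours passed (adjusted p of 0.0282, 0.0427 and 0.00172).

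Over all carriers, 7 of 42 had every array of C4-2B and VCaP above every array of DU145 and PC3, which 9.76% of all genes had, and 2 had the reverse, against 11% of all genes. The 7 were SLC25A4, SLC25A10, SLC25A13, SLC25A17, SLC25A25, SLC25A33 and SLC25A45, and the 2 were SLC25A24 and SLC25A43. SLC25A25, a calcium-regulated ATP-Mg carrier, had line means of 5.09 in C4-2B and 4.995 in VCaP against 4.01 in DU145 and 3.72 in PC3. Its relative SLC25A24 ran the other way, with 6.81 and 7.05 against 7.73 and 7.80. Both passed the F test (adjusted p of 0.000548 and 0.00251).

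The promoters of SLC25A33 and SLC25A4, which differed widely between lines, are given in the same way, at chr1:9539215-9539464 (plus strand) and chr4:185143016-185143265 (plus strand).
SLC25A33: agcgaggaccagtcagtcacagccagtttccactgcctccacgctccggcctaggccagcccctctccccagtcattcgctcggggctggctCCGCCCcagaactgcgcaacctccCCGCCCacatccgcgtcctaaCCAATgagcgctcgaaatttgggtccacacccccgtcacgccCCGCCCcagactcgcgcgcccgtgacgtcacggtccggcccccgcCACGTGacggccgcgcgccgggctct
SLC25A4: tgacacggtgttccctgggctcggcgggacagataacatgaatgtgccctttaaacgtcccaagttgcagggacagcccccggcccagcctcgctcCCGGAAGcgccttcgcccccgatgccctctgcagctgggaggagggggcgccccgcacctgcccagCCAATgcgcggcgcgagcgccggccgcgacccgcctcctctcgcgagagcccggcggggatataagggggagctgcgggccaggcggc
The SLC25A33 window holds 1 E-box, 26 to 21 bases before the start, with 1 CCAAT box and 3 GC boxes. The SLC25A4 window holds 1 ETS motif and 1 CCAAT box. An E-box occurs in 6.34% of all windows and in 8 of the 48 windows of carriers, and the ETS motif in 8.52% and in 11 of 48. The 48 windows belong to 38 of the 45 carriers, some of which have several starts with overlapping windows. They are richer in G and C than all windows (median 65% against 58%), which was not matched in these shares.

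Of the next 7 carriers by range, 3 lost the call without the line at one end of their order and 4 kept it. SLC25A16 stood highest in PC3, with line means of 7.30, 6.62, 8.32 and 6.55 in C4-2B, DU145, PC3 and VCaP (adjusted p = 0.000292), and its range of 1.77 was 0.76 without PC3 and still passed (adjusted p = 0.0219). C4-2B differed from DU145 and VCaP (adjusted p of 0.0190 and 0.0130), which did not pass as different from each other (adjusted p = 0.774). SLC25A11 had signals of 8.68, 7.62, 7.57 and 6.998 in the C4-2B, DU145, PC3 and VCaP controls, and 9.02, 7.71, 7.55 and 7.16 with DNAPK siRNA. It was highest in C4-2B, while DU145 and PC3 did not pass as different (adjusted p = 0.681). VCaP, its lowest line, differed from DU145 and from PC3 (adjusted p of 0.0228 and 0.0481). Without C4-2B the range of SLC25A11 went from 1.77 to 0.59 and no longer passed (adjusted p = 0.0581). SLC25A37 was highest in DU145, with line means of 7.85, 8.64, 6.87 and 6.91, and its range of 1.77 was 0.98 without that line and still passed (adjusted p = 0.00497). C4-2B came next and differed from DU145, PC3 and VCaP (adjusted p of 0.0239, 0.00925 and 0.0122), while PC3 and VCaP, at the bottom, did not pass as different (adjusted p = 0.89).

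SLC25A36 had signals of 7.92, 7.84, 6.77 and 8.43 in the C4-2B, DU145, PC3 and VCaP controls, and 7.55, 7.85, 6.43 and 8.13 with DNAPK siRNA. PC3 was its lowest line, and without PC3 the range went from 1.67 to 0.54 and the call was lost (adjusted p = 0.0885). C4-2B and DU145 did not pass as different (adjusted p = 0.674), nor did DU145 and VCaP (adjusted p = 0.0764), whereas C4-2B and VCaP differed (adjusted p = 0.0410). SLC25A38 was lowest in DU145, with line means of 7.69, 6.61, 7.67 and 8.03, and without DU145 the range went from 1.41 to 0.36 (adjusted p = 0.359). None of the pairs among C4-2B, PC3 and VCaP passed (adjusted p of 0.953, 0.287 and 0.245). SLC25A23 had signals of 7.84, 8.24, 7.66 and 6.87 in the C4-2B, DU145, PC3 and VCaP controls, and 8.11, 8.30, 7.61 and 6.75 with DNAPK siRNA. VCaP was its lowest line, and the range of 1.46 was 0.63 without it, which still passed (adjusted p = 0.0284). DU145 and PC3 differed (adjusted p = 0.0247), while C4-2B, between them, did not pass against either (adjusted p of 0.229 and 0.153). SLC25A20 had line means of 5.30, 4.59, 5.83 and 4.24, with PC3 highest, and its range of 1.59 was 1.05 without PC3 and still passed (adjusted p = 0.0227). In its order PC3, C4-2B, DU145 and VCaP, none of the neighbours differed by the pairwise test (adjusted p of 0.127, 0.0602 and 0.29).

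The 6 carriers with the highest mean signals were SLC25A39, SLC25A5, SLC25A13, SLC25A32, SLC25A33 and SLC25A11, a list that depends on the probes, since signals of different probe sets do not compare as amounts of RNA. SLC25A39 stood highest in PC3, with line means of 9.83, 9.75, 10.63 and 9.76 (adjusted p = 0.00544). SLC25A32 had signals of 7.84, 7.57, 8.81 and 8.19 in the C4-2B, DU145, PC3 and VCaP controls, and 7.63, 7.61, 8.50 and 8.20 with DNAPK siRNA, also highest in PC3 (adjusted p = 0.00327). SLC25A5 ran over a narrow range of 0.73 (adjusted p = 0.0104), and SLC25A13 over 0.84 (adjusted p = 0.00917), the latter highest in C4-2B and VCaP.

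**Figure D3:**
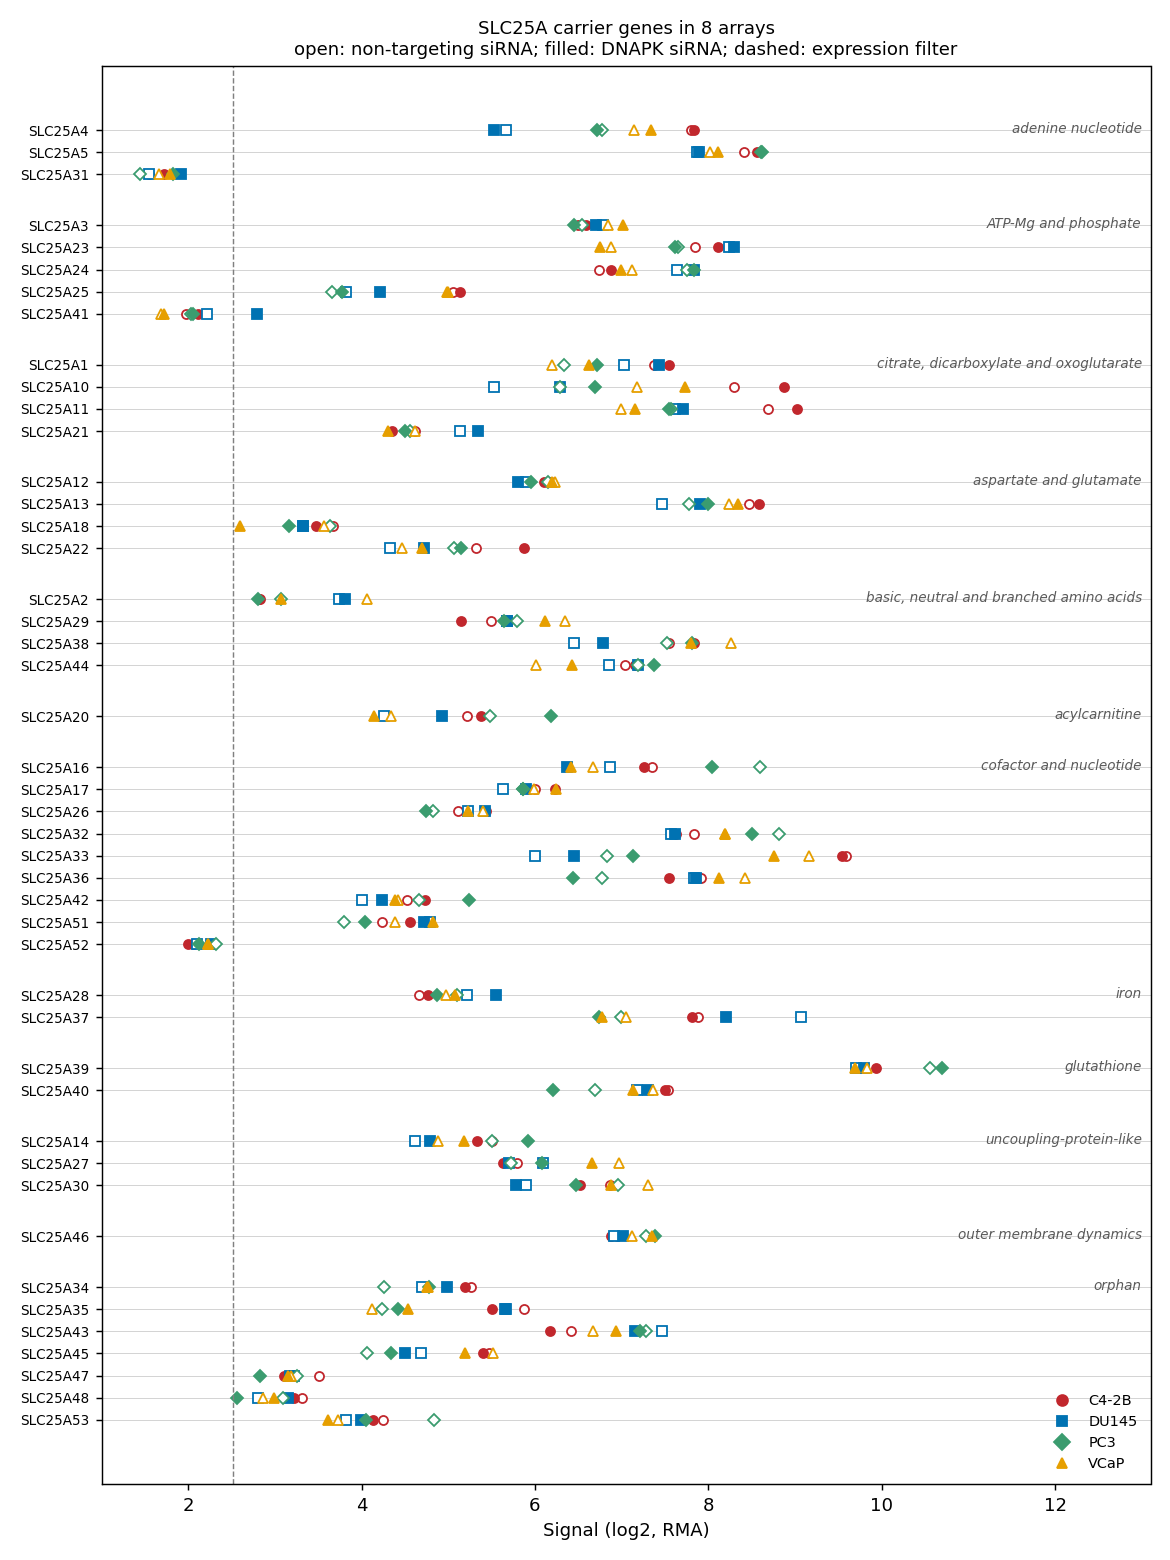
Signal (log2) of the 45 carriers by role, in the control (open) and DNAPK siRNA (filled) array of each line. For SLC25A33 and SLC25A10 the lines spread over 3.34 and 2.67 between their means, the open and filled symbols of SLC25A10 lie 0.41 to 0.76 apart within a line, and SLC25A31, SLC25A41 and SLC25A52 lie left of or across the dashed filter at 2.51.

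The response to the siRNA was also compared between C4-2B with VCaP, where KLK2, an androgen-regulated gene, was high, and DU145 with PC3, where it was low. The fit on the 4 per-line differences called 0 of 42 carriers and 0% of all genes, with 1 carrier and 621 genes at an unadjusted p under 0.05. That carrier was SLC25A20, with a mean difference of -0.019 in C4-2B and VCaP and 0.69 in DU145 and PC3, a gap of -0.71 (limma, adjusted p = 0.991). SLC25A33 was next, with -0.23 and 0.38, a gap of -0.60 (limma, adjusted p = 0.991).

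Genes that work beside the carriers did not pass the test either. Carriers are made in the cytosol and reach the inner membrane through the TOM pore, small TIM chaperones and the TIM22 complex. Of 13 such import genes, 0 passed in either direction, 10 had a mean difference above 0 (all genes, 56.4%) and 5 stood higher in every line (all genes, 11.5%), with a median of 0.14 against 0.03 for all genes. TIMM10, a small TIM chaperone, had 0.22, 0.46, 0.21 and 0.30 in C4-2B, DU145, PC3 and VCaP (limma, adjusted p = 0.688), and TIMM22, the insertion channel, 0.31, 0.029, 0.35 and 0.44 (limma, adjusted p = 0.688). Family genes under other symbols, which the choice by symbol left out, had 4 tested members and a median of 0.15. MTCH1, of the outer membrane, was at 0.24 ± 0.068. UCP1 was at 0.17 ± 0.017, and its mean signal of 2.61 lies just above the filter.

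Of 16 other mitochondrial transport genes tested, 0 passed, and their median was 0.04. LETM1, of potassium and calcium exchange, had 0.32 ± 0.32, with 0.19, 0.32, 0.0083 and 0.77 in C4-2B, DU145, PC3 and VCaP. SFXN3, a sideroflexin, had 0.24 ± 0.35, resting on VCaP (0.76). The 9 shuttle and citrate enzymes tested had 0 that passed and a median of 0.09. CPT2, which works with SLC25A20 in the carnitine shuttle, had 0.56, 0.67, 0.070 and 0.071, and ACLY, which splits the citrate that SLC25A1 exports, -0.027, 0.041, 0.17 and 0.95, so ACLY stood apart in VCaP. The 7 regulators of mitochondrial biogenesis had 0 that passed and a median of -0.04. The coactivator gene PPARGC1A was lower in each line, by 0.23, 0.24, 0.38 and 0.81 (limma, adjusted p = 0.688), and GABPA had -0.15 ± 0.18.

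**Figure D4:**
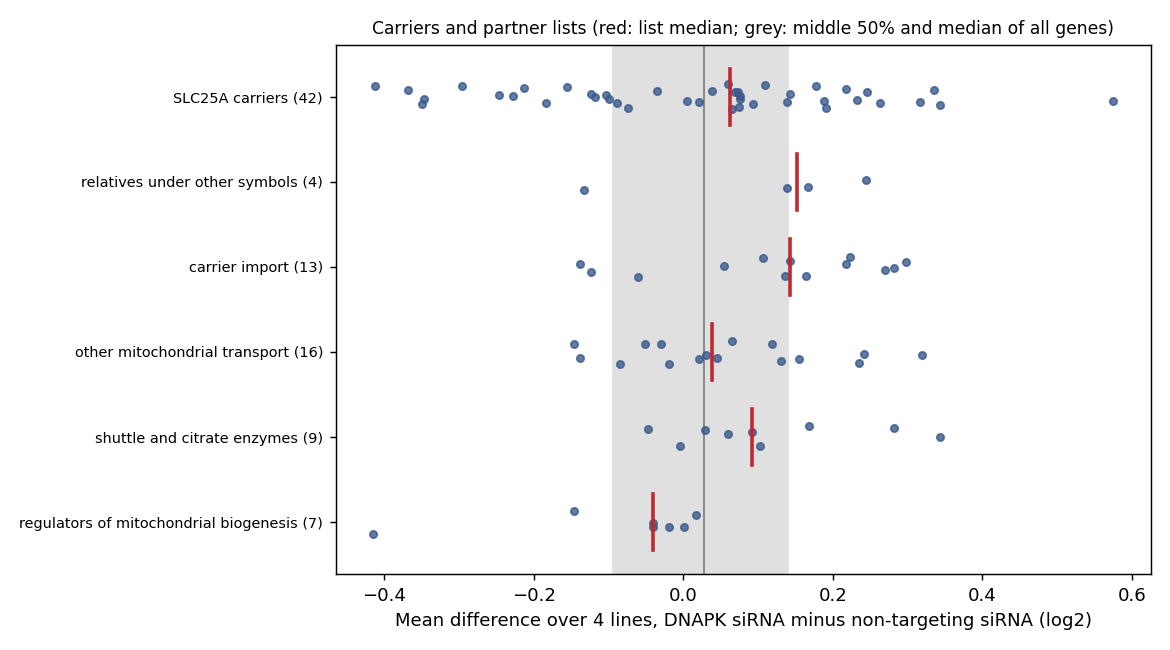
Each dot is the mean difference over 4 lines (log2) of 1 gene, for the 42 carriers and 5 lists of partner genes, with the list median in red. The grey band holds the middle 50% of all genes and the grey line their median of 0.03. The import genes have a median of 0.14, and SLC25A10 at 0.58 lies farthest right of all genes shown.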

How the data were processed

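Total RNA of 8 cultures was hybridised to Affymetrix arrays, 1 control and 1 DNAPK siRNA array in each of 4 lines. The values are log2 signals as the authors deposited them, and the submitters' processing notes name the oligo package and RMA, with no version or build given in the sources used here. The array medians lay between 2.94 and 2.99, and all values were used as deposited. The number of arrays limits the precision. For differences and responses, p-values rest on the spread of the differences between lines. For levels, they rest on the spread left between the arrays of a line after a common siRNA effect.

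The platform annotation named 25713 of 53617 probe sets, 23871 with 1 symbol, 1842 with several and 27904 with none. Symbols were updated to RefSeq (GRCh38.p14) through Entrez IDs for 22569 probe sets, giving 22395 genes. The probe set with the highest mean signal stood for each gene.

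Differences were fitted in R 4.3.3 with limma 3.58.1 (lmFit and eBayes, 2-sided) with the cell line as a block, on the 16796 genes above the 25th percentile of mean signal, with Benjamini-Hochberg adjustment over all of them and a threshold of 0.05. Levels were compared by a moderated F test over 4 lines with the siRNA as a term, and responses by a fit on the 4 per-line differences. The line pairs the samples by the labels: deviations of the 2 arrays of each line correlated at 0.864 to 0.918, and those of arrays differing in line and siRNA at 0.0135 or less. With 4 pairs no exact 2-sided sign-flip test can go below 0.125. The fits were tested on simulated data.

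Values in every array are given for the 4 carriers of each sign with the smallest p among those of 1 sign in 4 lines, the 10 with the largest range of line means, the 6 with the highest mean signal and the 2 with the smallest p for the response difference. The members, lists and tests were chosen with earlier results of these data known. The promoter motifs, and the use of the probe set shared by MRPL12 and SLC25A10 in place of the one of SLC25A10, were chosen after seeing the data. Alternatives were median centring, cyclic loess, the mean of probe sets, no filter, the 50th percentile as filter, no replicate block, a mean-variance trend, no siRNA term and leaving out each line.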

Additional observations from a re-analysis of the deposited data

Results flagged for a closer look

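Within 43 sets of 4 values, those of the 42 carriers above the filter and of PRKDC, a value was compared with the gap to its neighbour that Dixon's test allows. This picks about 1 set in 20 by chance, and it picked 3. The difference of SLC25A1 in C4-2B was 0.18, below the 0.38 to 0.42 of the other lines. The difference of SLC25A17 in PC3 was 0.00248, with the other lines higher. The difference of SLC25A38 in VCaP was -0.47, against 0.28 to 0.33 elsewhere. Outside the fit, the probe set annotated to both SLC25A15 and MIR621 had a mean difference of 0.45 ± 0.12 (SD, n = 4 lines) and was higher with DNAPK siRNA in 4 of 4 lines.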

How the results depend on the processing

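The fits called 0 carriers for DNAPK siRNA against control, and 0 for the response between pairs of lines, under every alternative run for each. Without the replicate block, which here is the line, the fit also called 0, and PRKDC kept its difference of -1.56 with an adjusted p of 0.999977 (limma). Between lines the fit called 31 to 33 of the carriers under the other settings, of 45 with no filter and of 38 above the 50th percentile, and 24 to 31 with a line left out. Carriers with 1 sign in every line numbered 12, and 16 to 19 with a line left out, when only 3 lines have to share a sign. The median carrier difference ran from 0.015, with cyclic loess or without C4-2B, to 0.071 above the 50th percentile. The ranges of SLC25A11 (0.59 without C4-2B), SLC25A36 (0.54 without PC3) and SLC25A38 (0.36 without DU145) no longer passed, each without the line at one end of its order, where a range can only shrink. The mean difference of SLC25A10 was 0.51 to 0.63 with a line left out, and 0.092 from the probe set shared with MRPL12. Of the carrier medians within lines, that of VCaP turned from -0.036 to 0.0033 with median centring. Signals near the filter, as for SLC25A2, SLC25A18, SLC25A47 and SLC25A48, lie close to the background of the arrays.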
